A study of Mus musculus with 4 samples.

Results

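The genes described here are 10 genes by which alveolar macrophages (AMs) clear and export the cholesterol of lung surfactant, namely Abca1, Abcg1, Apoe, Nr1h3, Nr1h2, Mylip, Npc1, Npc2, Lipa and Lpl. They were taken as the rows of the gene count table whose gene name equals one of these symbols, 1 row each, and are 10 of the 54532 genes in the table. All 10 passed the filter on low counts. The libraries are bulk RNA-seq of AMs, the resident macrophages of the airspace, from the lungs of female wild-type mice. Per the study's methods, wild-type mice were on a BALB/c background and 8 to 10 weeks old. Tumor-free mice gave the 2 Control libraries. Mice that had carried 4T1 cells, a single mouse mammary carcinoma line, in the mammary fat pad for 2 weeks gave the 2 Tumor libraries. Neither group carried an engineered allele or received a drug. The sources used here do not say whether a library is 1 mouse or a pool, so p-values measure only the spread between these libraries, which may be technical.

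Surfactant is a film of phospholipid and cholesterol that AMs take up and degrade throughout life. In the lysosome, lysosomal acid lipase (encoded by Lipa) frees cholesterol from its esters, and NPC2 hands it to the membrane protein NPC1, which passes it out of the lysosome. Oxidised sterols then activate the liver X receptors LXR-alpha (Nr1h3) and LXR-beta (Nr1h2), nuclear receptors that pair with RXR and induce Abca1, Abcg1, Apoe and Mylip. The transporters ABCA1 and ABCG1 move cholesterol to apolipoproteins and to high density lipoprotein. Macrophages without ABCG1 fill with lipid in the lung, which makes this transporter a well known part of AM biology.

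Total counts ranged from 16167147 to 19205737 per library. Levels are given in CPM, counts per 1000000 of the library, with library sizes scaled by TMM, a method that assumes most genes do not change. Siglecf, which marks AMs in the lung, was between 356 and 405 CPM in the 4 libraries, whereas Marco and Fabp4, also on the AM marker list, were at most 17.9 and 6.12 CPM in the Tumor libraries. All 12 genes of the AM marker list were lower in the Tumor libraries, and their summed level went from 14601 and 14711 CPM to 10364 and 10538 CPM. Chil3, the most abundant of them, went from 5096 and 5240 to 3665 and 3896 CPM. Markers of granulocytes and hepatocytes were higher. All 8 neutrophil genes were higher, with a summed level of 6.08 CPM in each Control library against 3597 and 3630 CPM in the Tumor libraries. The 5 eosinophil genes went from at most 0.507 to at least 2204 CPM, the 5 basophil and mast cell genes from at most 0.317 to at least 50.2 CPM, and the 8 hepatocyte genes from at most 1.08 to at least 644 CPM. The most abundant gene of each of these lists in the Tumor libraries was S100a9 (1101 and 1070 CPM), Prg2 (1637 and 1635 CPM), Gata2 (22.8 and 19.4 CPM) and Alb (464 and 477 CPM). In the list of monocyte and interstitial macrophage genes, 3 of 8 were higher and 4 lower, and its sum was 370.1 and 372 CPM against 404 and 397 CPM. Most of this sum was Csf1r, at 331 and 333 CPM in the Control libraries. Ly6c2, Ccr2 and Csf1r were the higher genes, and Cx3cr1, C1qa, C1qb and C1qc the lower ones. The alveolar type 2 list had 3 of 4 tested genes lower and sums from 219 to 220.3 CPM against 189.6 and 194 CPM. Most of this sum was Abca3, at 214 and 213 CPM in the Control libraries. Sftpc, Sftpb and Sftpa1 were at most 3.87 CPM in any library, and Sftpc was not called. Adipoq and Lep, defining genes of adipocytes, had 0 counts in all 4 libraries, and Plin1 had at most 2.83 CPM. For RNA-seq the study's methods say only that AMs were purified. AMs stained in the same study were taken with a CD45+ CD11b- CD11c+ SiglecF+ gate, which would leave out hepatocytes and CD11b+ granulocytes. The part of these cell types in the results below was not tested. In bulk RNA, fewer cells of a type and less RNA per cell cannot be told apart.

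The comparison asked whether this clearance route differed between AMs of tumor-bearing and tumor-free mice. All 10 genes had a Benjamini-Hochberg adjusted p under 0.05 in edgeR's quasi-likelihood test, where 53.8% of the 14256 genes tested did. Apoe and Nr1h2 were higher in the Tumor libraries, as were 29.0% of all genes tested. The other 8 were lower, as were 24.8% of all genes tested. Marker scaling instead sets the geometric mean of the 12 AM markers equal between libraries. Under it, 7 of the 10 were called higher, beside 78.3% of all genes tested, and Lpl alone lower, beside 3.16%. The CPM values of the groups did not overlap for any of the 10, which was also true of 75.1% of all genes tested (39.3% with the Tumor libraries higher and 35.8% lower). Lpl alone passed 2-fold, in the lower direction, where 15.9% of genes tested did so in either direction and 3.01% in the lower one. The median log2 fold change was -0.25 over the 10 genes and 0.02 over all genes tested. Marker scaling added 0.65 on the log2 scale to the median of all genes and moved the higher share of all calls from 53.9% to 96.1%. Of the 12 AM markers themselves, 8 were called higher and 4 lower under it, with a median log2 fold change of 0.18. Relative to the median of all genes tested, Apoe and Nr1h2 stood above and the other 8 below, an order that a rescaling of whole libraries leaves as it is. The summed CPM of the 10 genes in the Tumor libraries was 0.702 of that in the Control libraries, and 0.876 with Lpl left out, beside 0.713 for the AM marker list. By role, this ratio was 0.925 for the efflux genes, 1.05 for the LXR genes with Mylip and 0.803 for the lysosomal genes.

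**Figure D1:**
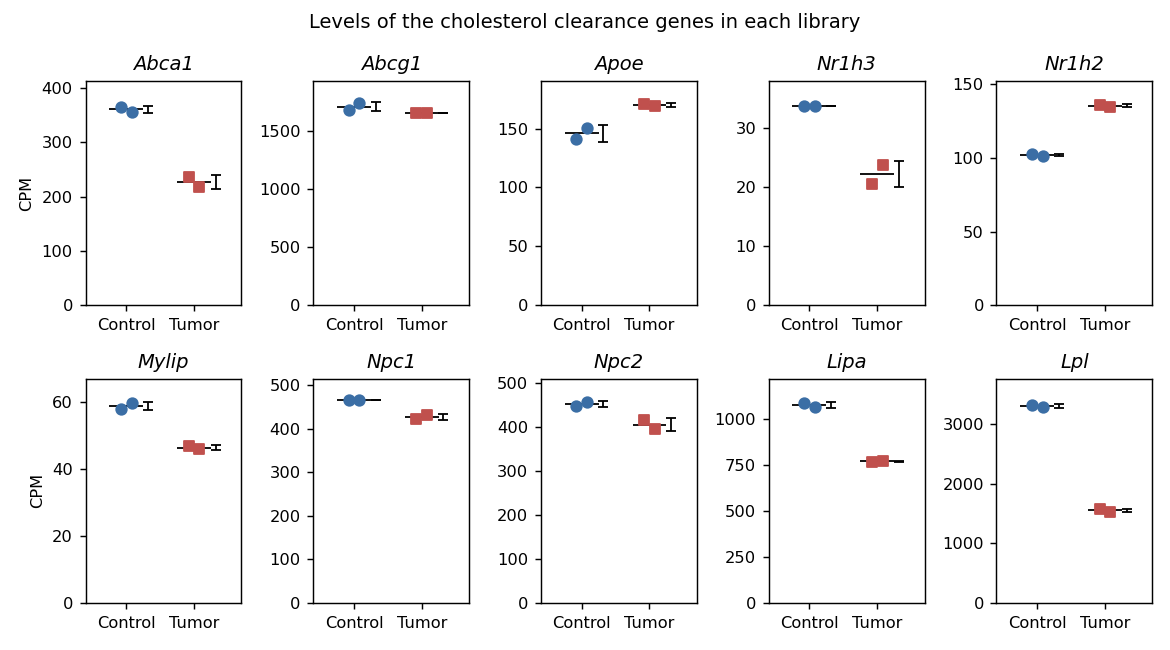
Level of each gene in CPM on the TMM-scaled library size in the 2 Control libraries (blue circles) and the 2 Tumor libraries (red squares), on linear axes that start at 0. Horizontal lines are group means and the bars beside them are the SD (n = 2). The groups do not overlap for any gene; Lpl falls from 3322 and 3282 to 1571 and 1532 CPM, whereas the Abcg1 values lie between 1651 and 1736 CPM in all 4 libraries.

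Among the efflux genes, Abca1 was lower, Abcg1 was nearly level and Apoe was higher in the Tumor libraries under TMM scaling. Abca1 (ENSMUSG00000015243, minus strand of chromosome 4, 53030787 to 53159895, GRCm38) encodes the transporter that loads cholesterol onto lipid-poor apolipoproteins. It was at 365 and 355 CPM in the Control libraries and at 236 and 217 CPM in the Tumor libraries, so both Tumor values lay well under both Control values. The log2 fold change was -0.67 ± 0.0339 (SE; edgeR adjusted p 5.94e-16), and under marker scaling it was -0.02 with an adjusted p of 0.635.

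Abcg1 (ENSMUSG00000024030, plus strand of chromosome 17, 31057698 to 31115777) encodes the transporter that delivers cholesterol to high density lipoprotein. Its levels were 1679 and 1736 CPM in the Control and 1651 and 1653 CPM in the Tumor libraries. The Tumor values lay just under the lower Control value, by less than the gap between the Control libraries. The log2 fold change of -0.05 ± 0.0188 (SE) passed the threshold with an edgeR adjusted p of 0.0356, but the call was lost without Control replicate 2 (adjusted p 0.0983), with at least 10 counts required in every library (0.349) and with total counts as library sizes, where the value was 0.02 (0.409). Under marker scaling Abcg1 was higher by 0.61.

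Apoe (ENSMUSG00000002985, minus strand of chromosome 7, 19696109 to 19699188) encodes an apolipoprotein that macrophages secrete and that accepts exported cholesterol. It was at 141 and 151 CPM in the Control and at 171 and 169 CPM in the Tumor libraries, a rise seen in both Tumor libraries. The log2 fold change was 0.22 ± 0.0389 (SE; edgeR adjusted p 2.11e-05), and between 0.16 and 0.87 over the alternative fits. Apoe is also expressed by hepatocytes. Alb was at 464 and 477 CPM in the Tumor libraries and at 0 counts in each Control library, and the part of such transcripts in the Apoe values was not tested.

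The 2 liver X receptor genes moved in opposite directions under TMM scaling. Nr1h3 (ENSMUSG00000002108, minus strand of chromosome 2, 91184061 to 91202834), the gene of LXR-alpha, had 633 and 534 counts in the Control and 357 and 467 in the Tumor libraries. That is 33.8 CPM in each Control library against 20.6 and 23.8 CPM, with the Tumor libraries farther apart than the Control libraries. Its log2 fold change was -0.60 ± 0.0886 (SE; edgeR adjusted p 1.53e-06), and 0.05 with an adjusted p of 0.604 under marker scaling. Nr1h2 (ENSMUSG00000060601, minus strand of chromosome 7, 44549616 to 44553951), the gene of LXR-beta, was at 103 and 101 CPM in the Control and at 136 and 135 CPM in the Tumor libraries. Its log2 fold change was 0.41 ± 0.0414 (SE; edgeR adjusted p 1.99e-09), and it was higher under each of the 13 alternative fits, by 0.38 to 1.06.

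Mylip (ENSMUSG00000038175, plus strand of chromosome 13, 45389742 to 45412022) encodes the ubiquitin ligase IDOL, which LXR induces and which sends lipoprotein receptors such as VLDLR and LRP8 for degradation. It was at 58.0 and 59.8 CPM in the Control and at 46.9 and 45.9 CPM in the Tumor libraries. Both Tumor values were lower, with a log2 fold change of -0.34 ± 0.0630 (SE; edgeR adjusted p 3.61e-05), which became 0.31 under marker scaling. Lrp8 fell from 61.9 and 62.6 to 40.5 and 40.4 CPM, with a log2 fold change of -0.62 ± 0.0637 (SE) that was 0.03 under marker scaling. Vldlr had at most 3 counts in any library.

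Ratios within a library do not depend on how libraries are scaled. Per kilobase of the gene length in the table, Nr1h2 stood at 2.28 and 2.25 times Nr1h3 in the Control libraries and at 4.96 and 4.24 times in the Tumor libraries. Abcg1 stood at 11.7 and 12.5 times Abca1 in the Control and at 17.8 and 19.4 times in the Tumor libraries. The ratio of Apoe to Abca1 was 1.87 and 2.06 against 3.51 and 3.77, so for these 3 pairs the groups were separated by more than the spread within either group. The ratio of Npc2 to Npc1 was 1.89 and 1.94 in the Control and 1.94 and 1.80 in the Tumor libraries and did not separate the groups. Both other ratios computed were lower in the Tumor libraries without overlap, Lipa to Npc1 at 8.43 and 8.25 against 6.56 and 6.44, and Lpl to Lipa at 0.867 and 0.874 against 0.580 and 0.564. These ratios restate the fold changes of their 2 genes and are not a separate result. The share of all gene pairs that part the groups in this way was not computed, and 75.1% of single genes tested did not overlap. An exact permutation test of 2 against 2 libraries cannot give a two-sided p below 0.333, and no test of the ratios was run.

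**Figure D2:**
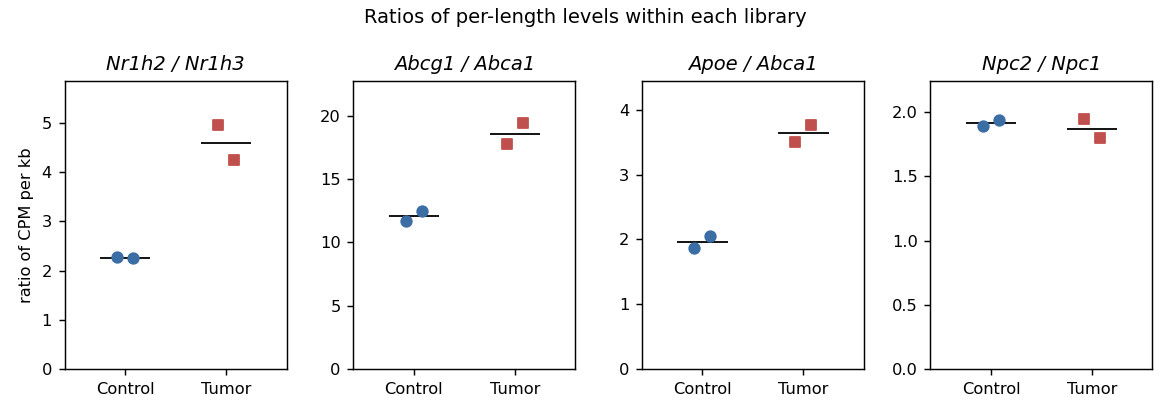
Ratio of the levels per kilobase of 4 of the 6 gene pairs within each Control library (blue circles) and Tumor library (red squares), on linear axes from 0, with lines at the group means (n = 2). Nr1h2 to Nr1h3, Abcg1 to Abca1 and Apoe to Abca1 are higher in both Tumor libraries, and Npc2 to Npc1 overlaps between the groups.

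The promoters of these genes are shown because LXR targets, and the receptors themselves, did not move together. RefSeq windows of 250 bases before to 50 after a gene start (GRCm38.p6) were matched by symbol for 7 of the 10 genes, leaving out Abcg1, Npc1 and Lpl. The 250 bases before the start are given for 2 genes that were lower under TMM scaling, Abca1 and Mylip, and for the 2 that were higher, Apoe and Nr1h2. Each is written 5′ to 3′ on the strand of the gene, and capitals mark matches to any of the motifs searched.
Abca1, chr4:53159896-53160145, minus strand: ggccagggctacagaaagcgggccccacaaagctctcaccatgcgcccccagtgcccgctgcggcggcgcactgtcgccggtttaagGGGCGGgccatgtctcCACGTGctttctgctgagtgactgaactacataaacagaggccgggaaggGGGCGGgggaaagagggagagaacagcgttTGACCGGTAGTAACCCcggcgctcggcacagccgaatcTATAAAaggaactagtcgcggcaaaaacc
Mylip, chr13:45389492-45389741, plus strand: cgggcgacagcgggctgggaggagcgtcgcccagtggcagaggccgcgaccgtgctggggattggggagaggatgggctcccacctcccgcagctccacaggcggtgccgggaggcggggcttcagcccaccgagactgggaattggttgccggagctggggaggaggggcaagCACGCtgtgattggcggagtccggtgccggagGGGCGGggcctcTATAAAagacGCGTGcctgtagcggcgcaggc
Apoe, chr7:19699189-19699438, minus strand: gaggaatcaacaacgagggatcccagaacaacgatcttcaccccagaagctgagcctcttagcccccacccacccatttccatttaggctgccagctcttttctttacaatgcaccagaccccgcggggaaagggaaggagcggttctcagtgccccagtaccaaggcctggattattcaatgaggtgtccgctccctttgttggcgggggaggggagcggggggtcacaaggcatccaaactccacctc
Nr1h2, chr7:44553966-44554215, minus strand: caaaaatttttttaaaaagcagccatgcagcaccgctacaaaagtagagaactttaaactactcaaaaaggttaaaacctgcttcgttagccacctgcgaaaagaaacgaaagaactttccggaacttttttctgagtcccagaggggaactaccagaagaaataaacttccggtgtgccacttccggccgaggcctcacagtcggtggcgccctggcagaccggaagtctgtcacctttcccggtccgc

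Motifs were searched on both strands of the whole windows, taking the first window listed for a gene. The direct repeat bound by LXR and RXR, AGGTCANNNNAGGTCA with up to 2 mismatches, was in none of the 7 windows and in 3.02% of all 32851 windows. With up to 3 mismatches, a limit set after the data were seen, it was found for Abca1 alone of the 7 genes and in 21.9% of all windows. The Abca1 match was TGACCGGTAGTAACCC at -67 to -52, counting back from the base before the start as -1, with the repeat on the opposite strand. An LXR response element is known in the Abca1 promoter. The GC box GGGCGG was found for 4 of the 7 genes (Abca1, Mylip, Npc2 and Lipa) and in 35.7% of all windows. The TATA box TATAAA was found for 3 genes and in 13.6% of all windows, at -29 to -24 in Abca1 and at -32 to -27 in Mylip. The third was Lipa, on the opposite strand at -239 to -234. The AHR core GCGTG was found for Mylip and Npc2 and in 32.4% of all windows. The E-box CACGTG, which reads the same on both strands and is bound by TFEB, USF and MYC proteins, was found for Abca1 at -147 to -142 and in 7.15% of all windows. The first windows of Apoe, Nr1h2 and Nr1h3 held none of these motifs. Apoe and Nr1h2 therefore show no capitals above. A match is a run of letters and not a measured binding site, and a motif may lie outside these windows.

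The 3 lysosomal genes were lower under TMM scaling, Lipa by more than Npc1 and Npc2. Lipa (ENSMUSG00000024781, minus strand of chromosome 19, 34492318 to 34527474) was at 1086 and 1064 CPM in the Control and at 767 and 770.1 CPM in the Tumor libraries. The Tumor values were close to each other and well under both Control values, with a log2 fold change of -0.48 ± 0.0209 (SE; edgeR adjusted p 1.69e-17). Npc2 (ENSMUSG00000021242, minus strand of chromosome 12, 84754562 to 84773152), the soluble carrier, was at 447 and 457 CPM against 416 and 395 CPM. Its log2 fold change was -0.16 ± 0.0281 (SE; edgeR adjusted p 2.44e-05).

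Npc1 (ENSMUSG00000024413, minus strand of chromosome 18, 12189693 to 12236400), the membrane partner, was at 466 CPM in each Control library and at 422 and 432 CPM in the Tumor libraries. Its log2 fold change of -0.12 ± 0.0257 (SE; edgeR adjusted p 0.000174) was -0.06 with an adjusted p of 0.0638 when total counts were the library sizes. All 3 were called higher under marker scaling, as were 78.3% of all genes tested. Lipa was higher by 0.17, Npc2 by 0.49 and Npc1 by 0.53. Npc1 overlaps Rmc1 on the opposite strand. Rmc1 had 2011 and 1723 counts in the Control and 1973 and 2106 in the Tumor libraries and was not called (log2 fold change 0.03, edgeR adjusted p 0.585). The strandedness of counting is not given in the sources used here, so reads of the overlap cannot be assigned with certainty.

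Lpl (ENSMUSG00000015568, plus strand of chromosome 8, 68880491 to 68907448) showed the largest difference of the 10 genes under TMM scaling. It encodes lipoprotein lipase, which releases fatty acids from the triglyceride of lipoproteins. Its share of all counts was 0.324% and 0.320% in the Control group, and 0.160% and 0.157% in the Tumor group. In CPM these were 3322 and 3282 CPM against 1571 and 1532 CPM, so each Control library had more than each Tumor library by over 2-fold. The log2 fold change was -1.09 ± 0.0173 (SE; edgeR adjusted p 1.23e-27), a fall of 2.13-fold, and only 2.80% of genes tested had a value as low. It was the single gene of the 10 called lower under marker scaling, with -0.44, and over all 13 alternative fits it lay between -1.12 and -0.44.

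**Figure D3:**
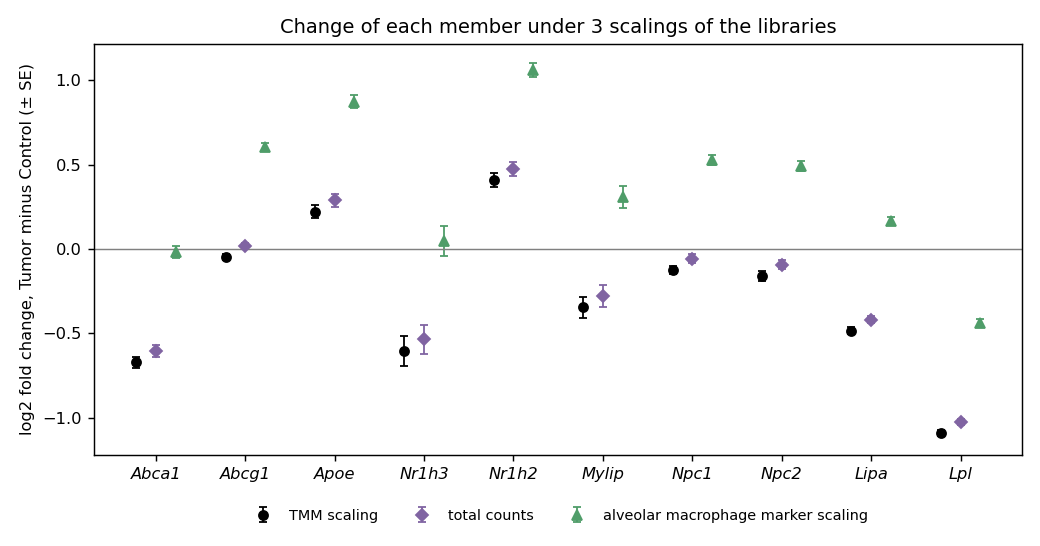
Log2 fold change of Tumor against Control, with its SE, for the 10 genes under TMM scaling (black circles), total counts as library sizes (violet diamonds) and scaling on the AM marker list (green triangles). Marker scaling raises every gene by the same shift, about 0.65; Apoe and Nr1h2 stay above 0 and Lpl below 0 under all 3, Abcg1 changes sign under total counts and marker scaling, and Nr1h3, Mylip, Npc1, Npc2 and Lipa change sign under marker scaling.

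Levels of different genes were compared per kilobase of the gene length in the table, as CPM per kilobase. In the Control libraries the order was Abcg1 at 419.9 ± 10.01, Lipa at 362 ± 5.38, Lpl at 315 ± 2.70, Npc2 at 83.2 ± 1.37 and Apoe at 68.2 ± 3.29 (SD, n = 2 each). Below them stood Npc1 at 43.4 ± 0.00455, Abca1 at 34.8 ± 0.687, Nr1h2 at 30.4 ± 0.242, Mylip at 18.2 ± 0.387 and Nr1h3 at 13.4 ± 0.0183. No neighbours in this order overlapped between their 2 libraries. In the Tumor libraries Apoe stood above Npc2, at 79.4 ± 0.724 against 74.5 ± 2.79, and Nr1h2 above Abca1, at 40.4 ± 0.334 against 21.9 ± 1.31 (SD, n = 2 each). Nr1h2 and Npc1, at 39.8 ± 0.644, could not be told apart there. Abcg1 was thus the most abundant of the 10 by this length and ranked 77 among all genes in the Control libraries. By the longest coding transcript in GENCODE, a length chosen after the data were seen, Lpl came first at 802 CPM per kilobase, before Lipa at 362 and Abcg1 at 293, and Nr1h2 at 51.0 stood above Abca1 at 35.1. In the Tumor libraries that length put Apoe at 121 beside Npc2 at 123, the reverse of the order above, and Nr1h2 at 67.8 below Npc1 at 81.8.

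The route was then placed among 64 further genes in 9 companion lists. Of these, 59 passed the filter on low counts, 21 were higher and 29 lower, beside 53.8% called among all genes tested. Their median log2 fold change was -0.09. Counts for each list are under TMM scaling, where 29.0% of all genes tested were higher and 24.8% lower. Those in brackets, in the same order, are under marker scaling, where 78.3% were higher and 3.16% lower. Among 6 LXR partners and corepressors, 5 of them tested, 3 were higher and 2 lower (4 and 1). The partner Rxra rose from 253 ± 7.59 to 307 ± 9.07 CPM and Rxrb from 47.2 ± 4.17 to 60.7 ± 1.22 CPM (SD, n = 2). Rxrg had at most 3 counts in any library.

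Of 9 other genes that LXR induces, 8 were tested, 3 were higher and 4 lower (5 and 1), and their median log2 fold change was -0.13. Arl4c, a small GTPase gene, rose from 9.68 ± 0.874 to 58.5 ± 1.18 CPM (SD, n = 2), by 2.59 ± 0.0904 on the log2 scale (SE). Pltp, the gene of a phospholipid transfer protein, and Mertk, the gene of a receptor for apoptotic cells, were picked out with their values in view. They changed by -0.73 and -0.72, close to Abca1, and by -0.07 and -0.07 without a call under marker scaling. The genes called higher beside Arl4c, also named with their values in view, were Apoc1, by 2.26, and Smpdl3a, by 0.14. Srebf1, the regulator of fatty acid synthesis, was lower by 0.19 under TMM and higher by 0.46 under marker scaling. Cd5l fell from 18 and 10 counts to 2 and 3, a call that was lost without Control replicate 1 (edgeR adjusted p 0.172). Apoc2 had 0 counts in all 4 libraries. Of the genes around PPARG, a receptor on which AM lipid handling depends, all 5 were lower under TMM scaling, while 4 were higher and 1 lower under marker scaling, to which Pparg and Fabp4 themselves contribute. Pparg itself changed by -0.22, or 0.43 under marker scaling, and Fabp4, a fatty acid carrier, fell by 2.13 on the log2 scale, or by 1.47 under marker scaling.

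Most genes that sense or make sterol were lower. Of 6 such genes 5 were lower and 1 was higher (4 and 2), with a median log2 fold change of -1.0004. Hmgcs1, an enzyme of cholesterol synthesis, went from 194 ± 8.24 to 62.3 ± 2.82 CPM (SD, n = 2). Its log2 fold change was -1.64 ± 0.0455 (SE), or -0.99 under marker scaling. Insig1, which holds back sterol synthesis and was singled out after its value was seen, changed by -1.02, or -0.37 under marker scaling. Scap, the sterol sensor that escorts SREBP, rose by 0.29. Among 9 lipoprotein receptors and partners of LPL, 7 were tested, 3 were lower and 2 higher (1 and 4). The highest of these by fold, Apoc3, had 96 and 128 counts in the Tumor libraries against 0 in each Control library. It was at least 29.2-fold higher against a floor of 3 counts per library and belongs to the hepatocyte list as well.

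Lysosomal and storage genes moved in both directions. Of 10 lysosomal lipid genes 3 were higher and 5 lower (9 and 1), with Gm2a, a glycolipid carrier, up by 0.39 and Tfe3, a regulator of lysosomal genes, down by a log2 fold change of -0.89 (-0.23 under marker scaling). Of 7 sterol transfer genes 3 were higher and 1 lower (5 and 1). Gramd1a, which moves plasma membrane cholesterol to the endoplasmic reticulum, rose by 0.84, and Stard4 changed by -0.97 (-0.31 under marker scaling). Of 7 genes of sterol esters and oxysterols 4 were higher and 3 lower (6 and 0). Nceh1, which hydrolyses cholesteryl esters, went from 901 ± 0.715 to 602 ± 3.96 CPM (SD, n = 2). This is -0.58 on the log2 scale, or 0.07 under marker scaling.

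Soat1, the main esterifying enzyme of macrophages, was at 237 and 230 CPM in the Control and 217 and 222 CPM in the Tumor libraries. Its log2 fold change of -0.09 was called (edgeR adjusted p 0.0223) but not without Control replicate 1 (0.144), without Tumor replicate 1 (0.0879) or with at least 10 counts required in every library (0.109). Total counts in place of TMM gave -0.02 (0.589), and under marker scaling 0.56. Soat2, the esterifying enzyme of liver and intestine, rose from 12 and 18 to 185 and 193 counts, by 3.55 ± 0.244 on the log2 scale (SE), and was singled out after its values were seen. Cyp7b1, an oxysterol hydroxylase gene, had 16 and 17 counts in the Tumor libraries against 0 in each Control library, which is at least 4.56-fold higher against the same floor. Of 5 other efflux genes and acceptors 4 were tested, 2 were higher and 1 lower (3 and 0). Scarb1, a receptor for high density lipoprotein, changed by -0.27, or 0.39 under marker scaling, and Apoa1, a hepatocyte gene, went from 1 and 3 counts to 908 and 933.

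**Figure D4:**
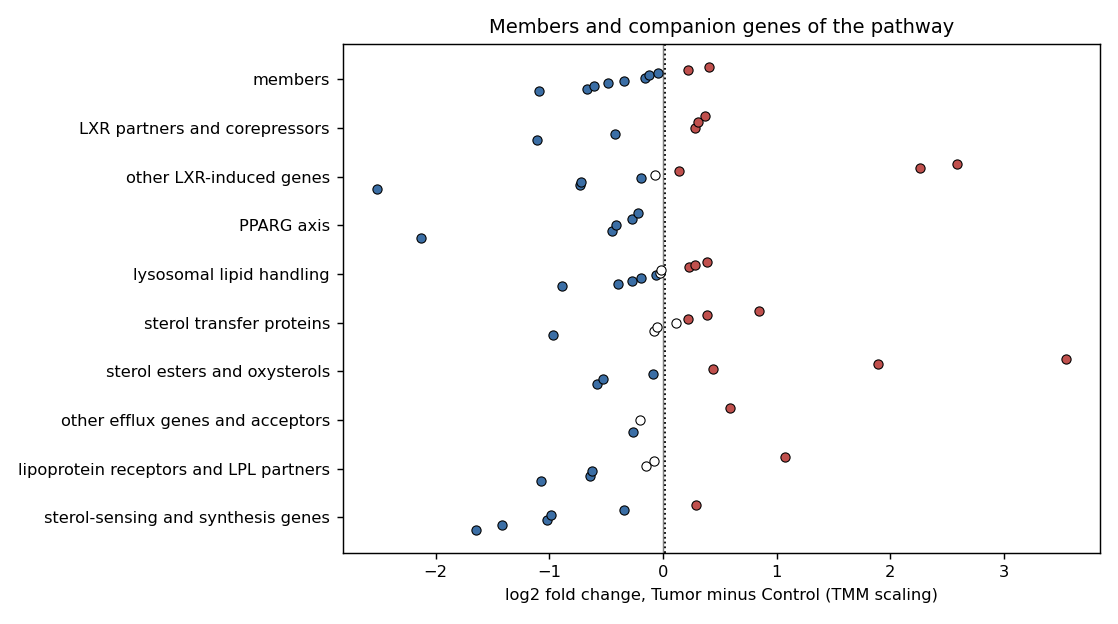
Log2 fold change of Tumor against Control under TMM scaling for the 10 members and the tested companion genes by list; filled points passed the edgeR threshold (red higher, blue lower) and open points did not, and the dotted line is the median of all genes tested, 0.02. Cyp7b1, Apoa1 and Apoc3, with at most 3 counts in both Control libraries, are left out; the sterol-sensing and synthesis genes lie farthest to the left as a list, with a median of -1.0004, and small falls under 0.65 become rises under marker scaling.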

How the data were processed

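The deposited values are raw counts of reads assigned to each gene, with a column for every library. The authors made them from paired-end reads of NEBNext Ultra libraries with HISAT2 2.0.5 (submitters' processing notes) and featureCounts. The gene length column, in bases, is also the deposited one. The genome build is not given in the sources used here. Of 54532 gene identifiers, 54495 are in GENCODE M21 (GRCm38), 98.3% of these with the same coordinates. Groups came from the titles.

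The quasi-likelihood test of edgeR 4.0.16 was run in R 4.3.3 after filterByExpr at a minimum count of 10 (14256 genes kept) and TMM. The model held the group alone, which leaves 2 residual degrees of freedom, with Benjamini-Hochberg adjustment over all genes tested at 0.05. The SE was derived from the fold change and the F statistic. CPM is counts per 1000000 of the TMM-scaled library size, divided by gene length for CPM per kilobase. The test was first tried on simulated counts with known changes. Alternatives used other scalings, filters and thresholds, DESeq2 1.42.0, limma-voom 3.58.1, a replicate block, and each library left out.

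Companions named are the largest called rise and fall of each list, Vldlr, Lrp8, Rxra, Rxrb, Srebf1, Pparg, Soat1, Scarb1, and any with at most 3 counts in each library (some that this rule names are not reported here); of each marker list, the most abundant gene in Tumor libraries, AM markers being led by Chil3 and adipocyte markers by Plin1. Members, lists and alternatives were chosen with earlier results of these data known. The floor of 3 counts corresponds to 0.153 to 0.190 CPM.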

Additional observations from a re-analysis of the deposited data

How the results depend on the processing

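Over the 13 alternative fits, 119 of 130 log2 fold changes of the 10 genes kept their direction and call, 4 lost the call and 7 changed sign. Scaling on the AM marker list gave 11614 called genes in all against 7671. With it 7 of the 10 genes were higher and 1 lower, beside 78.3% and 3.16% of all genes tested. It turned Abcg1 to 0.61, Nr1h3 to 0.0504, Mylip to 0.31, Npc1 to 0.53, Npc2 to 0.49 and Lipa to 0.17. By construction this scaling adds about 0.65 to each log2 fold change of the 10 genes. It does not set each AM marker level, since 8 of the 12 were called higher under it and 4 lower. The same scaling turned 6 of 23 companions followed singly, Srebf1 to 0.46, Pparg to 0.43, Nceh1 to 0.0721, Soat1 to 0.56, Scarb1 to 0.39 and Lrp8 to 0.03. Total counts as library sizes turned Abcg1 to 0.0194. Requiring a 2-fold change left 2268 genes in all, 0 of the 10 higher, 1 lower, and 15 of the 64 companions against 50. Apart from marker scaling and the 2-fold rule, the settings tried left the count of higher genes at 2 and of lower genes between 6 and 8.

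The sources used here do not say what the replicate number stands for. Deviations of same-numbered libraries correlated at -0.00278 over the genes tested, a single value that cannot exclude that they were handled together. With the replicate number as a block, 7446 genes were called, and of the 10 genes 2 were higher and 8 lower. Leaving out 1 library, which assumes that the lone library varies like the pair, gave 2 higher and 7 or 8 lower. With 2 libraries per group the test rests on the spread shared across genes, a biological coefficient of variation of 0.0303.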
